A study of Mus musculus with 6 samples.

Results

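The genes of the mouse major histocompatibility complex (MHC) and of peptide loading were followed in LPS-exposed primary microglia that had or had not received C13. The members were every row of the expression table whose symbol begins with H2- together with B2m, Tap1, Tap2, Tapbp, Tapbpl, Nlrc5, Cd74, Ciita, Erap1, Calr, Canx and Pdia3. That gave 55 of the 24340 genes in the table. They were sorted into 3 classical class I genes, 28 class Ib genes, 12 genes of class II and its accessory proteins, and 10 genes of class I loading, chaperoning and control, while H2-Ke6 and H2-K2 stood in no class. Of the 51 members with an entry in the GENCODE annotation of GRCm38, 42 lie on chromosome 17.

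The C13 cells were primary microglia, the macrophages that reside in brain tissue, from newborn C57BL/6 mice under 3 days old, given 10 uM C13 for 1 h and then 1 ug/ml lipopolysaccharide (LPS, a bacterial cell wall component that activates macrophages through Toll-like receptor 4) for 5 h. The vehicle cells were microglia of the same source given the DMSO vehicle for 1 h and the same LPS for 5 h. C13 is a small molecule that the series title calls an inhibitor of MOK, a protein kinase. Each group had 3 libraries labelled as biological replicates, and all 6 received LPS, so the comparison bears on C13 in LPS-exposed cells and holds no cells without LPS.

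Classical class I molecules consist of a polymorphic heavy chain, the light chain beta-2-microglobulin and a peptide of cytosolic origin, and they show that peptide to CD8 T cells on nearly every nucleated cell. Class II molecules show peptides from endosomes to CD4 T cells and are mostly a property of dendritic cells, B cells and activated macrophages, and microglia are known to raise them after interferon-gamma. Class Ib molecules resemble classical class I in fold but vary little between individuals, and several bind a narrow set of ligands for innate-like lymphocytes. The class I genes are switched on by the coactivator Nlrc5 and the class II genes by its relative Ciita, both acting on an enhanceosome built on the proximal promoter.

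Vehicle replicate 2 stood apart from the other 5 libraries. Its median correlation with the others was 0.969, against 0.984 to 0.989 for the rest, and its FPKM values (fragments divided by the length of the transcript and by the library's total) summed to 634451, against 504674 to 534757. It held the highest value of all 6 libraries in 19 of the 31 members tested and the lowest in 5, so the main results are given with and without it. The steps between low values put the depth at about 11140000 to 11550000 fragments in the C13 libraries and 8900000 to 10800000 in the vehicle libraries. All 12 microglial markers reached a mean of 1 FPKM, with sums of 2432 to 2596 FPKM in C13 libraries and 2531 to 3437 in vehicle libraries. Most of each sum came from C1qa, C1qb and C1qc, while P2ry12, Cx3cr1 and Tmem119 reached at most 6.94 FPKM in any library. All 6 fibroblast markers also reached a mean of 1 FPKM, with sums of 3733 to 4303 FPKM with C13 and 3967 to 4271 with vehicle. Markers of other cells were thus present, and their part in the results below was not tested. The 8 astrocyte markers, 7 of which reached 1 FPKM, summed to 63.7 to 115 FPKM with C13 and 47.6 to 58.0 with vehicle, without overlap. Lower levels in a bulk library can come from fewer cells of a type or from less RNA per cell, and these cannot be told apart.

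With all 6 libraries, none of the 31 tested members passed the threshold in limma's moderated test on log2(FPKM + 1), Benjamini-Hochberg adjusted p under 0.05 over 11412 genes, and neither did any other gene (0% higher and 0% lower). The lowest adjusted p of a member was 0.393. Without adjustment, 7 members had p under 0.05 with lower levels after C13 and 0 with higher levels, where 4.77% of all tested genes were lower by that measure and 2.57% higher. In 11 of the 31 members every C13 library lay below every vehicle library, which held for 9.78% of all tested genes, and in 0 members did every C13 library lie above, against 6.83% of all genes. The change was below 0 in 24 of the 31, against 50.1% of all genes. It was below 0 in 18 of the 31 after TPM, against 2644 of the 11412 genes, and in 19 after quantile scaling, against 5693 genes. The 11 non-overlapping members were H2-K1, H2-Q4, H2-Q8, H2-Q9, H2-M3, B2m, Calr, Tapbp, Tapbpl, Tap1 and Tap2. With vehicle replicate 2 left out, 14 of the 31 and 2336 of the 11412 genes lay below without overlap. Without that library limma called 1 member, H2-Q4, as lower and 0 as higher, where 1.07% of all genes were called lower and 0.412% higher. After rescaling to TPM, which shifted the median of all genes up by 0.13, 6 of the 31 members and 384 of the 11412 genes had C13 libraries all below. The 6 were H2-Q4, H2-Q9, H2-M3, Calr, Tap1 and Tap2, while the groups of H2-K1, H2-Q8, B2m, Tapbp and Tapbpl overlapped after TPM. None of these member counts was tested.

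**Figure D1:**
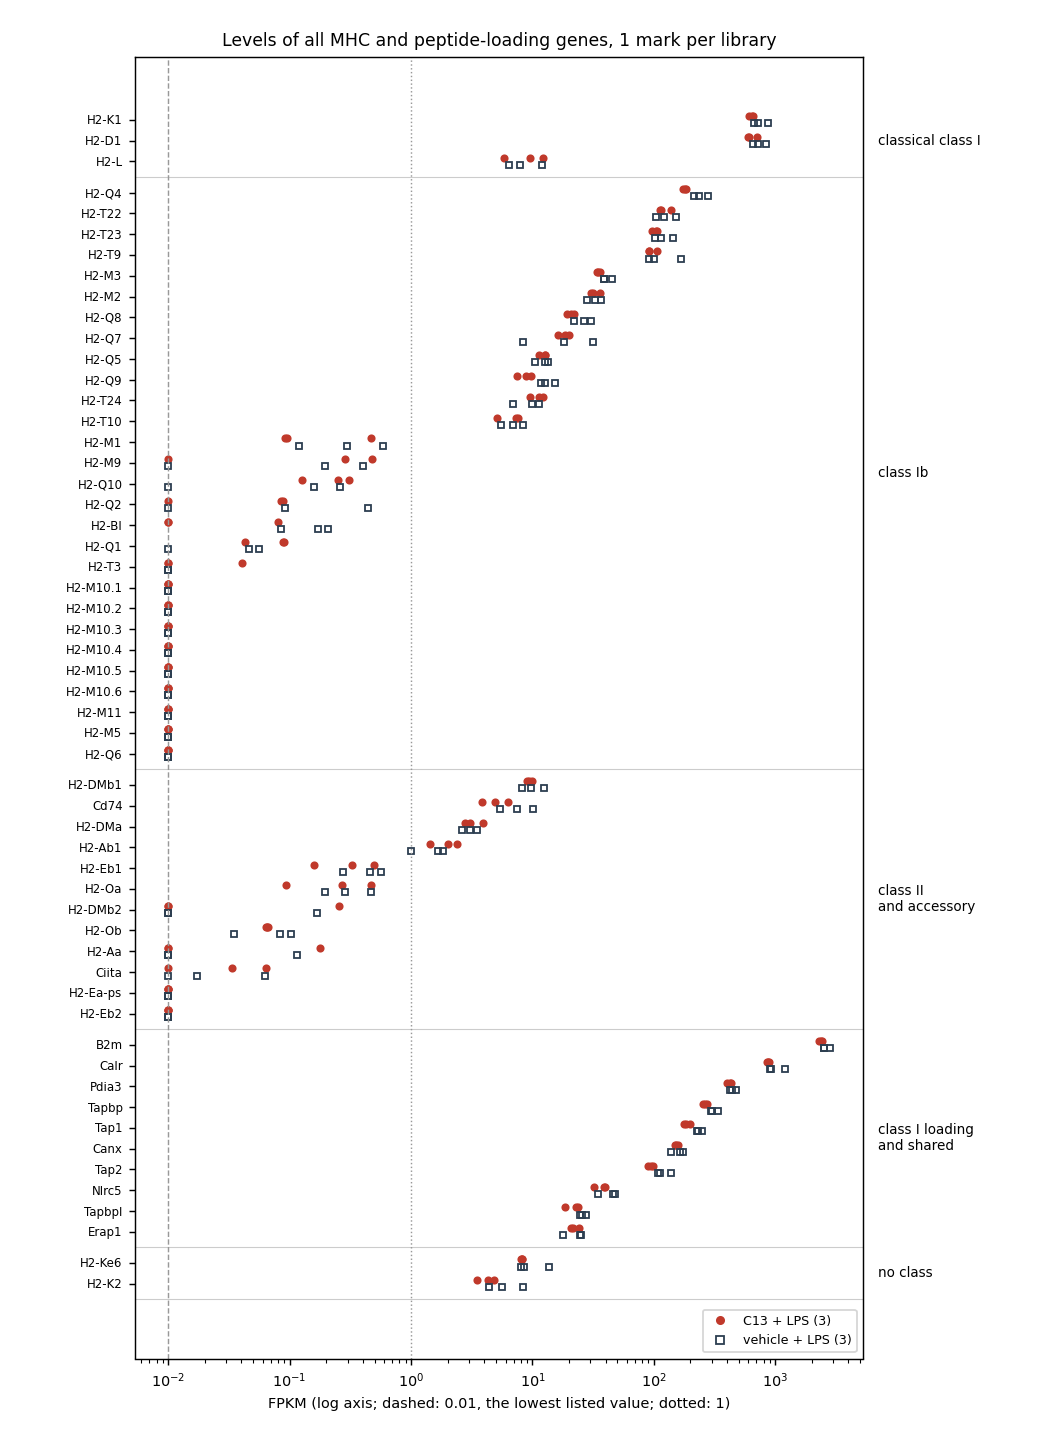
FPKM (log axis) of all 55 members in each of the 3 C13 libraries (filled circles) and 3 vehicle libraries (open squares), grouped by class, with the lowest listed value of 0.01 FPKM dashed and 1 FPKM dotted. Classical class I and loading genes sit mostly above 100 FPKM, class Ib genes spread from the floor to 277 FPKM, and class II genes stay at or under 12.4 FPKM.

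The classical class I heavy chains H2-K1 and H2-D1, which carry peptides to CD8 T cells, were among the most abundant members. H2-K1 (chr17:33996017-34000347, minus strand) stood at 605, 653 and 645 FPKM in C13 replicates 1 to 3, against 666, 874 and 715 FPKM in vehicle replicates 1 to 3. All 3 C13 libraries lay below all 3 vehicle libraries, although the highest C13 and lowest vehicle values were close. The change in log2(FPKM + 1) was -0.24 (SE 0.12, limma adjusted p = 0.753), and without vehicle replicate 2 it was -0.12 (adjusted p = 0.319). H2-D1 (chr17:35262730-35267499, plus strand) stood at 605, 594 and 701 FPKM with C13 and 661, 837 and 721 FPKM with vehicle. Its groups overlapped through C13 replicate 3, and the change was -0.22 (SE 0.12, limma adjusted p = 0.787), or -0.13 without vehicle replicate 2 (adjusted p = 0.474). The classical class I sum was 1222, 1256 and 1352 FPKM with C13 and 1333, 1719 and 1449 FPKM with vehicle, and the ratio of H2-K1 to H2-D1 stayed near 1 in every library, from 0.921 to 1.10 with C13 and from 0.992 to 1.04 with vehicle.

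The remaining row of the class, H2-L, gave 12.2, 9.53 and 5.79 FPKM with C13 and 6.37, 7.88 and 11.9 FPKM with vehicle. The groups overlapped over their whole range and the change was 0.055 (SE 0.29, limma adjusted p = 0.961), turning to -0.16 without C13 replicate 1. The H-2b haplotype of C57BL/6 mice is known to lack the L gene, and in the table the H2-L row shares its locus with H2-D1. Fragments of H2-D1 and H2-L therefore cannot be told apart from the table. Over that locus the summed values were 617, 603 and 707 FPKM with C13 and 667, 845 and 733 FPKM with vehicle, a change of -0.22 (SE 0.12, limma adjusted p = 0.775).

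**Figure D2:**
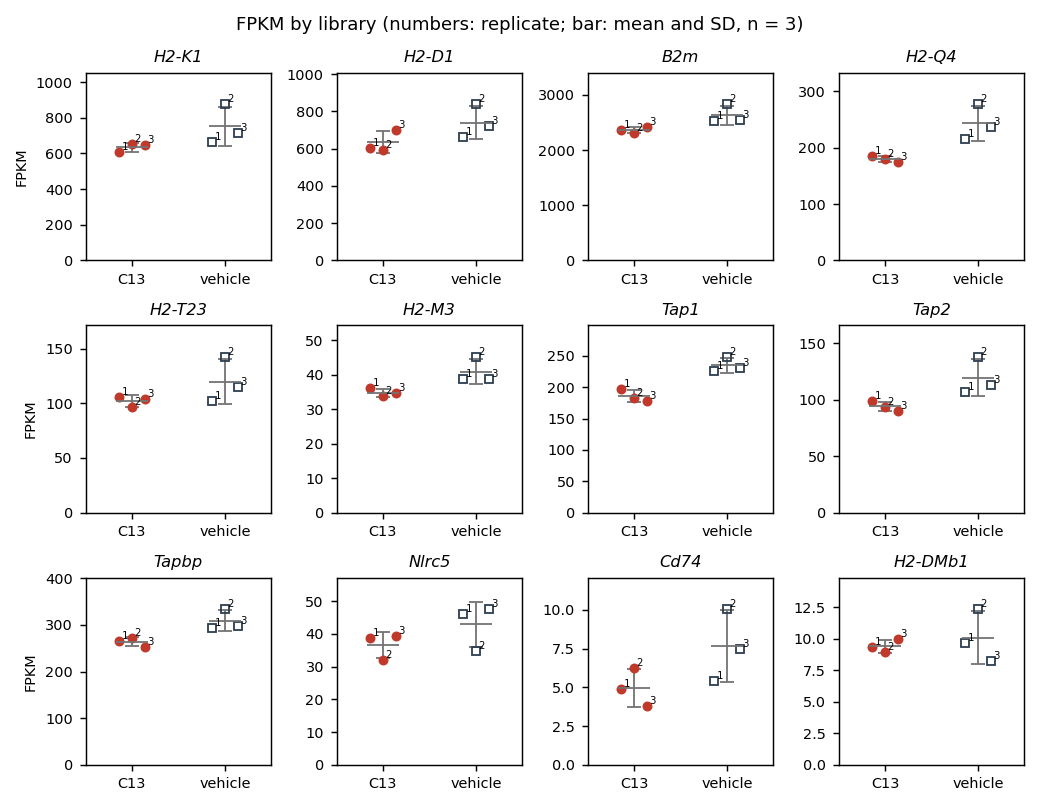
FPKM (linear axes from 0) of 12 members in each library, numbered by replicate, with C13 left of vehicle and bars for the mean and SD (n = 3 each). Vehicle replicate 2 is the highest point in 11 of the 12 panels and the lowest vehicle point for Nlrc5.

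The promoters of H2-K1 and H2-D1 are printed because they hold elements through which class I genes are known to be controlled. The 200 bases before a start site annotated by RefSeq on GRCm38.p6 are printed 5′ to 3′ on the gene's strand, with matches to the searched motifs in capitals on either strand.
H2-K1, chr17:34000334-34000533, minus strand: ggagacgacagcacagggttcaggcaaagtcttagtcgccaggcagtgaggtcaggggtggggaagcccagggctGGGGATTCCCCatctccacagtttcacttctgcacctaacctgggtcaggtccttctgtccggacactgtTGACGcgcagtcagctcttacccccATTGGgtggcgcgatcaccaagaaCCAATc
H2-D1, chr17:35262894-35263093, plus strand: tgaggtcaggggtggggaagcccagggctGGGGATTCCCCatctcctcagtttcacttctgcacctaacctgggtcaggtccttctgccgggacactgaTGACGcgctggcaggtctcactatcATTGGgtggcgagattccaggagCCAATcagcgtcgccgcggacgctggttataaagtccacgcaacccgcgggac
Both hold GGGG followed by ATT and then CCCC, a palindrome except for its central T and a form bound by NF-kappaB. This palindrome starts at -125 in H2-K1 and at -171 in H2-D1 counted from the start site. Of the 27025 genes with a promoter in the RefSeq table, 9 (0.0333%) hold it on either strand in a window of 250 bases before to 50 after any annotated start. Every share of genes given for a motif counts those that have it in at least 1 such window. Of the 38 members with a promoter in the RefSeq table, only H2-Q6 also holds the palindrome. H2-Q6 was listed at the floor in all 6 libraries, but it shares its locus with H2-Q8. The summed values of that locus were 22.0, 20.6 and 19.4 FPKM with C13 and 22.1, 26.7 and 30.6 FPKM with vehicle. TGACG, the half-site of CREB-family factors, starts at -55 in H2-K1 and at -101 in H2-D1. CCAAT, the NF-Y box, lies closer to the start in both (ATTGG on the printed strand is its reverse). A match describes letters in the window and shows no binding.

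Among the class Ib genes H2-Q4 was the most abundant, followed by H2-T22, H2-T23 and H2-T9, whose levels overlapped among themselves. Of the 28 rows, 12 had a mean of at least 1 FPKM. The median change over the 12 was -0.14, with 8 below 0 and 4 above, where the median over all 11412 genes was -0.00028. Their summed level was 655, 648 and 634 FPKM with C13 and 685, 865 and 759 FPKM with vehicle, without overlap.

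H2-Q4 (chr17:35379617-35385290, plus strand), a heavy chain of the Qa region, was the only member called without vehicle replicate 2. It stood at 185, 180 and 174 FPKM with C13 and 215, 277 and 237 FPKM with vehicle. Every C13 library lay well below the lowest vehicle library. The change was -0.42 (SE 0.11, limma adjusted p = 0.402), and H2-Q4 fell by 0.33 without vehicle replicate 2 (limma adjusted p = 0.0464). Leaving out any other library gave no member past the threshold.

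H2-Q7 and H2-Q9 encode the Qa-2 antigen. H2-Q9 stood at 7.42, 8.84 and 9.74 FPKM with C13 and 15.2, 12.7 and 11.7 FPKM with vehicle, with no overlap, and the change was -0.55 (SE 0.13, limma adjusted p = 0.393), or -0.58 without vehicle replicate 2 (adjusted p = 0.0972). H2-Q7 gave 16.2, 19.8 and 18.5 FPKM with C13, against 8.40, 31.7 and 18.1 FPKM with vehicle. The C13 values lay inside the wide spread of the vehicle values. The table places both rows at 1 locus, and their sum was 23.7, 28.7 and 28.3 FPKM with C13 and 23.6, 44.3 and 29.8 FPKM with vehicle, which overlapped. The change of the sum was -0.23 (SE 0.21, limma adjusted p = 0.815), so the separation seen in the H2-Q9 row was absent from the locus as a whole. H2-Q8, which shares its locus with the floor-level row H2-Q6, stood at 22.0, 20.6 and 19.4 FPKM with C13 and 22.1, 26.7 and 30.6 FPKM with vehicle, a change of -0.33 (SE 0.13, limma adjusted p = 0.630). Its groups did not overlap but nearly touched.

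H2-T23 encodes Qa-1, which shows leader peptides of other class I chains to the CD94-NKG2 receptors of natural killer cells. It stood at 106, 96.4 and 104 FPKM with C13 and 102, 143 and 115 FPKM with vehicle. The groups overlapped through vehicle replicate 1, and the change was -0.22 (SE 0.13, limma adjusted p = 0.804), or -0.085 without vehicle replicate 2. H2-T23 shares its locus with H2-T24, whose own change was 0.24, and with A930015D03Rik. The change of their sum was -0.18 (SE 0.11, limma adjusted p = 0.795). H2-T22, known as a ligand of some gamma-delta T cell receptors, stood at 115, 138 and 113 FPKM with C13 and 121, 104 and 152 FPKM with vehicle, with a change of -0.029 (SE 0.15, limma adjusted p = 0.961), or -0.16 without vehicle replicate 2. H2-T22 did not differ beyond the spread of its libraries. H2-T9, which shares the H2-T22 locus, stood at 107, 91.2 and 91.6 FPKM with C13 and 100, 167 and 91.7 FPKM with vehicle, and the change of their sum was -0.16 (SE 0.10, limma adjusted p = 0.795).

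H2-M3 (chr17:37270220-37274484, plus strand) presents N-formylated peptides, a mark of bacterial and mitochondrial proteins. It stood at 36.1, 33.7 and 34.7 FPKM with C13 and 38.7, 45.3 and 38.9 FPKM with vehicle. The groups did not overlap, the change was -0.22 (SE 0.091, limma adjusted p = 0.649), and without vehicle replicate 2 it was -0.15 (adjusted p = 0.210). Neighbouring H2-M2 averaged 32.5 ± 3.0 FPKM with C13 and 32.5 ± 4.2 FPKM with vehicle (SD, n = 3 each). H2-Q5, H2-T24 and H2-T10 averaged 12.2, 11.1 and 6.64 FPKM with C13 and 12.2, 9.32 and 6.94 FPKM with vehicle, all with overlapping groups. Sequence shared between these genes limits how well reads can be assigned. Of the 50-base words in the GENCODE transcripts of H2-T10, 31.7% also occur in H2-T22, and 25.5% of those of H2-Q5 occur in H2-Q7. With any other class I row that has GENCODE transcripts H2-Q4 shares 16.5%, H2-D1 10.9%, H2-K1 9.63%, and H2-M3 and H2-M2 0.58% each. H2-L, H2-Q8, H2-Q9 and H2-T9 have no GENCODE entry and were left out of this comparison.

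The remaining 16 class Ib rows were not tested. H2-M10.1 to H2-M10.6, genes known for expression in vomeronasal sensory neurons, H2-M5, H2-M11 and H2-Q6 were at the floor of 0.01 FPKM in all 6 libraries. H2-M1, H2-M9, H2-Q1, H2-Q2, H2-Q10, H2-Bl and H2-T3 were above the floor in at least 1 library and never above 0.584 FPKM. H2-Q10, a secreted chain made in liver, reached 0.306 FPKM with C13 and 0.260 FPKM with vehicle. H2-T3, the thymus leukaemia antigen, was above the floor in C13 replicate 1 alone, at 0.041 FPKM, which is worth about 1.1 fragments.

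The promoters of H2-Q4 and H2-T23 are shown because they carry different matches to the searched motifs.
H2-Q4, chr17:35379417-35379616, plus strand: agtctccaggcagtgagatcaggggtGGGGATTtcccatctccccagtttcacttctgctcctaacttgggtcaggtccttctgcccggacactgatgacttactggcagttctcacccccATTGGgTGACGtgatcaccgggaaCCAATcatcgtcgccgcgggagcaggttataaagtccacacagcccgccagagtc
H2-T23, chr17:36032702-36032901, minus strand: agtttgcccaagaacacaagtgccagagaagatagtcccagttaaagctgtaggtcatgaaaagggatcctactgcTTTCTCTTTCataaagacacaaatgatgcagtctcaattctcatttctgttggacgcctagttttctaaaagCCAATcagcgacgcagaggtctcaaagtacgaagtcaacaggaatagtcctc
H2-Q4 has GGGGATT at -174, the left part of the palindrome, followed by TCCC where the palindrome has CCCC. The left part stood in 3 of the 6 tested class Ib promoters in the table (H2-Q4, H2-Q7 and H2-T22), against 3.57% of all genes in the table. It stood in 10 of the 38 members, 26.3%, among them 4 of the 14 untested class Ib genes and H2-Aa of class II. GGGGATT was searched after the data had been seen. H2-T23 lacks GGGGATT. On the opposite strand at -124 it holds GAAA followed after any pair of bases by a second GAAA, the core of an interferon-stimulated response element. That pair stood in 4 of the 38 members with a promoter (H2-T23, H2-T22, B2m and Erap1), 10.5%, against 3.99% of all genes in the table. CCAAT stood in all 6 tested class Ib promoters and in 34 of the 38 members, 89.5%, against 41.1% of all genes in the table.

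The genes that fold, load and control class I were all tested, and the change was below 0 in 10 of 10, with a median of -0.21. Relative to the median of all genes it stayed at -0.20 after rescaling to TPM, where 7 of 10 were below 0, and was -0.018 after quantile normalization, where 5 of 10 were. In 6 of the 10 every C13 library lay below every vehicle library, against 9.78% of all genes. After TPM this held for 3 of the 10, against 384 of the 11412 genes. After quantile normalization it held for 3 of the 10, against 909 of the 11412 genes. Their summed level was 4486, 4379 and 4437 FPKM with C13 and 4766, 5454 and 4785 FPKM with vehicle, without overlap. As shares of the library totals the sums were 0.855%, 0.857% and 0.879% with C13 and 0.902%, 0.860% and 0.895% with vehicle, which overlapped.

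Tap1 and Tap2 form the TAP transporter that pumps cytosolic peptides into the endoplasmic reticulum. Tap1 (chr17:34187553-34197225, plus strand) stood at 196.5, 183 and 178 FPKM with C13 and 225.5, 249 and 231 FPKM with vehicle. Its lowest vehicle library was above its highest C13 library, vehicle replicate 2 was only modestly higher than the other vehicle libraries, and the change was -0.34 (SE 0.085, limma adjusted p = 0.402). Without vehicle replicate 2 the change was -0.29 (limma adjusted p = 0.052), just short of the threshold. Tap2 (chr17:34203527-34216321, plus strand) stood at 98.5, 94.0 and 89.9 FPKM with C13 and 107, 138 and 113 FPKM with vehicle. These groups also lay apart, with a change of -0.33 (SE 0.11, limma adjusted p = 0.575) that became -0.23 without vehicle replicate 2 (adjusted p = 0.105). The ratio of Tap1 to Tap2 FPKM was 1.95 to 1.99 with C13 and 1.80 to 2.10 with vehicle, so the proportion of the subunits' transcripts differed by less than the spread between vehicle libraries.

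Tapbp encodes tapasin, the bridge between TAP and empty class I, and Tapbpl its relative TAPBPR, an editor of bound peptides. Tapbp (chr17:33915899-33929292, plus strand) stood at 266, 272 and 254 FPKM with C13 and 294, 335 and 298 FPKM with vehicle. The groups lay apart with a change of -0.23 (SE 0.090, limma adjusted p = 0.637), and -0.17 without vehicle replicate 2 (adjusted p = 0.142). After TPM and after quantile scaling the Tapbp groups overlapped. Tapbpl, on chromosome 6, stood at 22.8, 23.7 and 18.7 FPKM with C13 and 24.4, 25.3 and 27.8 FPKM with vehicle, with a change of -0.25 (SE 0.11, limma adjusted p = 0.708). Its groups did not overlap, but C13 replicate 2 and vehicle replicate 1 were close.

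B2m (chr2:122147686-122153083, plus strand), the light chain shared by classical and most class Ib molecules, was the most abundant member. It stood at 2370, 2309 and 2422 FPKM with C13 and 2526, 2828 and 2538 FPKM with vehicle. The C13 libraries were all lower by a small margin, and the change was -0.15 (SE 0.11, limma adjusted p = 0.821), or -0.098 without vehicle replicate 2 (adjusted p = 0.333). After quantile normalization it was 0.0070. The table gives B2m a locus shared with Patl2 and Trim69. The ratio of B2m FPKM to the summed class I and Ib heavy chains was 1.21 to 1.26 with C13 and 1.09 to 1.25 with vehicle.

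Calr, Pdia3 and Canx encode calreticulin, the oxidoreductase ERp57 and calnexin, chaperones that serve many glycoproteins besides class I. Calr stood at 887, 866 and 861 FPKM with C13 and 909, 1212 and 915 FPKM with vehicle. Apart from vehicle replicate 2 the groups differed little, and the change of -0.20 (SE 0.13, limma adjusted p = 0.816) became -0.066 without that library and 0.012 after quantile normalization. Pdia3 stood at 425, 428 and 400.5 FPKM with C13 and 436, 477 and 425.5 FPKM with vehicle, which overlapped, and its change of -0.093 (SE 0.090, limma adjusted p = 0.824) was above 0 after TPM and quantile scaling. Canx averaged 153 ± 4.7 FPKM with C13 and 158 ± 18.3 FPKM with vehicle (SD, n = 3 each). Erap1, the aminopeptidase that trims peptides in the endoplasmic reticulum, averaged 22.2 ± 1.8 FPKM with C13 and 22.5 ± 4.1 FPKM with vehicle (SD, n = 3 each), and in both genes vehicle replicate 2 was the lowest of the 6 libraries.

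Nlrc5, the coactivator of class I genes, stood at 38.6, 31.9 and 39.3 FPKM with C13 and 46.1, 34.9 and 47.7 FPKM with vehicle. The groups overlapped through vehicle replicate 2, which lay below C13 replicates 1 and 3, and the change was -0.22 (SE 0.14, limma adjusted p = 0.816). Without vehicle replicate 2 the C13 libraries all lay below, with a change of -0.35 (adjusted p = 0.121).

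The promoters of B2m and Tap1 are printed because these members have the highest level and the lowest p among the loading genes.
B2m, chr2:122147487-122147686, plus strand: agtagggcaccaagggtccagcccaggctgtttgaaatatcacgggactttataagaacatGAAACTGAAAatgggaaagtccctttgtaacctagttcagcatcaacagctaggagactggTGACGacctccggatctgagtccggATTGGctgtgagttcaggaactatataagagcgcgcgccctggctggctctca
Tap1, chr17:34187356-34187555, plus strand: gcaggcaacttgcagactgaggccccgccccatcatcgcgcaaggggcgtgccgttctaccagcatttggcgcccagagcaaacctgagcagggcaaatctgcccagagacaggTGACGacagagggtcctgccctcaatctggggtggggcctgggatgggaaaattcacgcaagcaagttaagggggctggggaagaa
B2m holds a GAAA pair at -139, TGACG at -78 and CCAAT, reversed, at -53, in the order seen in textbook class I promoters. Tap1 holds TGACG at -86 in the printed stretch and CCAAT only farther out, at -222. Neither holds the palindrome or GGGGATT.

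Class II was nearly silent beside class I in both groups. The 12 genes of the class summed to 20.1, 21.6 and 19.6 FPKM with C13 and 21.2, 28.6 and 20.1 FPKM with vehicle, which overlapped. That was 0.979% to 1.12% of the class I, Ib and II sum with C13 and 0.903% to 1.09% with vehicle. Classical class I exceeded class II by 58.0 to 68.8 times with C13 and 60.1 to 72.1 times with vehicle. The peptide-binding chains alone (H2-Aa, H2-Ab1, H2-Eb1, H2-Eb2 and H2-Ea-ps) summed to 1.79, 2.77 and 2.53 FPKM with C13 and 2.23, 2.25 and 1.50 FPKM with vehicle.

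**Figure D3:**
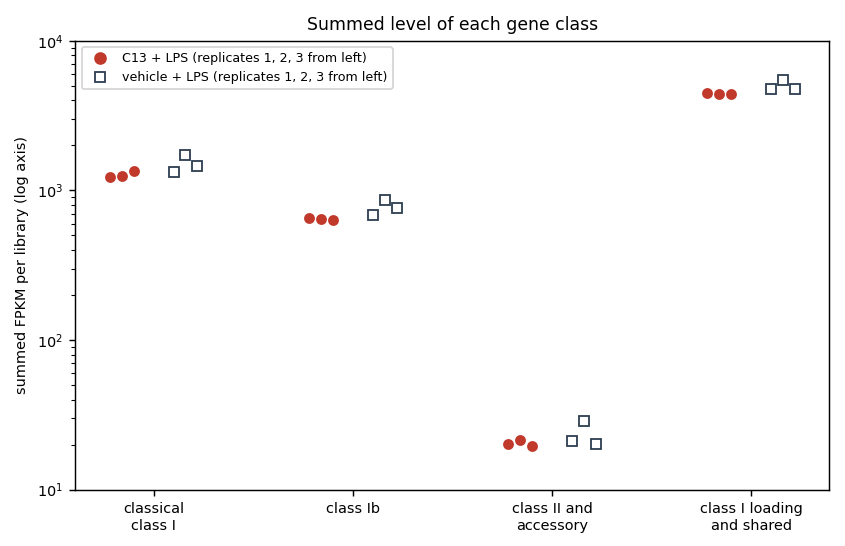
Summed FPKM of each class (log axis) in every library, with the 3 C13 libraries left of the 3 vehicle libraries, replicates 1 to 3 from left. The C13 points lie below the vehicle points without overlap for class Ib and, before division by the library totals, for the loading genes, overlap with them for class II, and in classical class I C13 replicate 3 (1352) lies above vehicle replicate 1 (1333).

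Only 4 class II genes reached 1 FPKM. Cd74, the invariant chain that escorts class II to endosomes, stood at 4.88, 6.24 and 3.81 FPKM with C13 and 5.43, 10.1 and 7.50 FPKM with vehicle. It had the largest negative change of the 4, -0.52 (SE 0.23, limma adjusted p = 0.688), but its groups overlapped and the change was -0.33 without vehicle replicate 2 (adjusted p = 0.437). H2-DMa and H2-DMb1 encode the subunits of H2-M, which exchanges the invariant chain fragment for peptide. H2-DMb1 stood at 9.31, 8.93 and 9.95 FPKM with C13 and 9.65, 12.4 and 8.25 FPKM with vehicle, and its change was -0.078 (SE 0.14, limma adjusted p = 0.890). H2-DMa stood at 3.90, 3.05 and 2.77 FPKM with C13 and 3.06, 3.48 and 2.60 FPKM with vehicle, and its change was 0.064 (SE 0.14, limma adjusted p = 0.911). Neither differed beyond the spread between libraries, and for both the sign depended on which library was left out. H2-Ab1, the beta chain of the only complete class II molecule of C57BL/6 mice, averaged 1.95 ± 0.49 FPKM with C13 and 1.49 ± 0.43 FPKM with vehicle (SD, n = 3 each), on about 13.1 to 33.7 fragments a library.

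The 8 other class II rows were not tested. H2-Aa, the alpha chain paired with H2-Ab1, was above the floor in C13 replicate 2 (0.177 FPKM) and vehicle replicate 1 (0.115 FPKM) alone. Ciita, the master coactivator of class II, stood at 0.01, 0.0641 and 0.0332 FPKM with C13 and 0.0622, 0.01 and 0.0173 FPKM with vehicle. The highest of these is worth about 4.4 fragments of its longest transcript, so no difference was detectable at this depth. H2-Ob, a subunit of the H2-O inhibitor of peptide exchange, rested on about 2.0 fragments in each C13 library and 1.0 to 3.0 in the vehicle libraries. H2-Ea-ps, the E alpha gene that C57BL/6 mice are known not to express, and H2-Eb2 were at the floor in every library. H2-Eb1, H2-Oa and H2-DMb2 stayed at or under 0.567 FPKM. Markers of professional antigen-presenting cells were also low. None of 5 B cell markers reached a mean of 1 FPKM, with sums of 0.355 to 0.618 FPKM with C13 and 0.357 to 0.749 with vehicle, and 2 of 5 dendritic cell markers did, with sums of 1.83 to 2.43 FPKM with C13 and 1.56 to 2.97 with vehicle. The 4 border macrophage markers, summed to 361 to 434 FPKM with C13 and 349 to 501 with vehicle, nearly all of it Pf4 and Mrc1, while Cd163 and Lyve1 stayed at or under 0.128 FPKM.

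The promoters of H2-Aa and H2-DMb1 are shown for contrast with those of class I.
H2-Aa, chr17:34287824-34288023, minus strand: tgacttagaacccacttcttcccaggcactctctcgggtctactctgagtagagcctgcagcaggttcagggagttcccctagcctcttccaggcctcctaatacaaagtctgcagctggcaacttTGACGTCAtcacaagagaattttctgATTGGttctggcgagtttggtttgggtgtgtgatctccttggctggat
H2-DMb1, chr17:34152991-34153190, plus strand: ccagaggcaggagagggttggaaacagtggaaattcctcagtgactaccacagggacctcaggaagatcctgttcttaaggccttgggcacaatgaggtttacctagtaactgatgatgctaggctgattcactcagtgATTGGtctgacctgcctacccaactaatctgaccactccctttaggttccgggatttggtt
H2-Aa holds the full palindrome TGACGTCA at -74, present in 2.03% of all genes in the table and in no other of the 38 members, with a reversed CCAAT at -48. Before the printed stretch, at -250, H2-Aa also holds GGGGATT or its reverse. H2-DMb1 holds of the searched motifs a reversed CCAAT at -61 alone. CCAAT stood in at least 1 window of all 8 class II genes in the table, for H2-DMa in 1 of 2, and the NF-kappaB palindrome and the GAAA pair in none of them. TGACG, which TGACGTCA contains on both strands, stood in 16 of the 38 members, 42.1%, against 6228 of the 27025 genes in the table, and in 1 of the 8 of class II.

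The 2 rows in no class had overlapping groups. H2-Ke6, a steroid dehydrogenase gene named for its place in the complex, averaged 8.11 ± 0.094 FPKM with C13 and 10.1 ± 3.1 FPKM with vehicle, and H2-K2 averaged 4.21 ± 0.68 FPKM with C13 and 6.11 ± 2.0 FPKM with vehicle (SD, n = 3 each).

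Set side by side, the median change was -0.22 over the 3 classical class I genes, -0.14 over the 12 tested class Ib genes, -0.21 over the 10 loading genes and -0.0070 over the 4 tested class II genes, against -0.00028 over all genes. Without vehicle replicate 2 these were -0.12, -0.088, -0.16 and 0.10. C13 libraries lay all below in 1 of 3 classical class I genes, 4 of 12 class Ib genes, 6 of 10 loading genes and 0 of 4 class II genes, against 9.78% of all genes. After TPM these were 0 of 3, 3 of 12, 3 of 10 and 0 of 4, against 384 of the 11412 genes. The difference between classes was not tested, and 4 low-level genes carry little weight. The class sums with C13 differed from those with vehicle by -14.9% for classical class I, -16.1% for class Ib, -12.2% for class II and -11.3% for loading genes. Without vehicle replicate 2 they differed by -8.21%, -10.6%, -0.895% and -7.15%. As shares of each library's FPKM total, which was itself lower with C13 (504674 to 524549) than with vehicle (528593 to 634451), the sums differed by -5.97%, -7.46%, -2.58% and -2.42%. The ratio of class Ib to classical class I was 0.469 to 0.536 with C13 and 0.503 to 0.524 with vehicle, so the balance between them did not differ beyond the spread between C13 libraries.

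**Figure D4:**
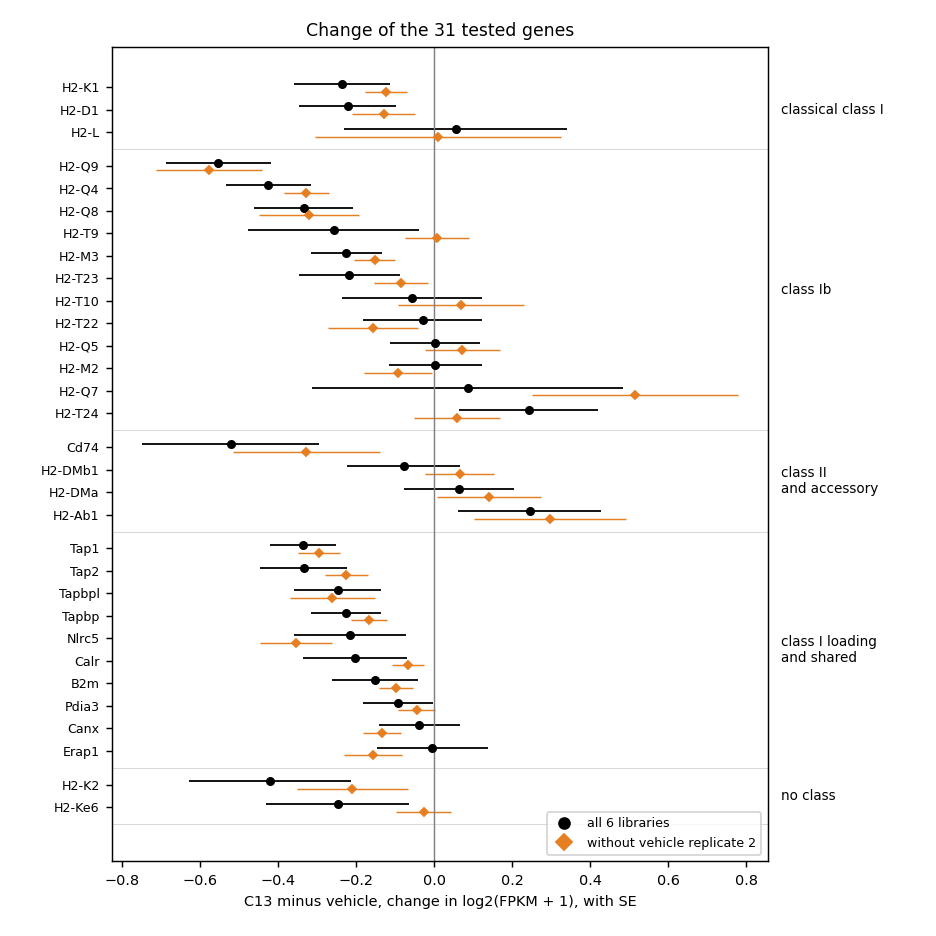
Change in log2(FPKM + 1), C13 minus vehicle, with its SE for the 31 tested members, from all 6 libraries (black circles) and without vehicle replicate 2 (orange diamonds). The 10 loading genes lie at or below 0 in both fits (7 after TPM and 5 after quantile scaling were below 0), H2-Q4 lies at -0.42 and -0.33 and Tap1 at -0.34 and -0.29 in the 2 fits, and the class II genes lie on both sides.

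The departure of vehicle replicate 2 from its group was set against transcript length, with which it was weakly related. In 20 of the 27 tested members with an annotated length it lay above the mean of vehicle replicates 1 and 3, and their median length was 2053.5 nt, against 3062 nt for the 7 where it lay below. Over these 27 genes, which share the same libraries, Spearman's rho of length and ratio was -0.31, given as a description. The ratio was 1.33 for Calr and 1.56 for Cd74 but 0.817 for Canx, 0.745 for Nlrc5 and 0.718 for Erap1. The trend had exceptions, since the ratio was 2.39 for H2-Q7 (4209 nt), 1.34 for H2-T10 (3389 nt) and 1.26 for Tap2 (3442 nt) but 0.814 for H2-M2 (1550 nt). The part of this in the class results was not tested, and the values without the library stand beside the main results above.

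**Figure D5:**
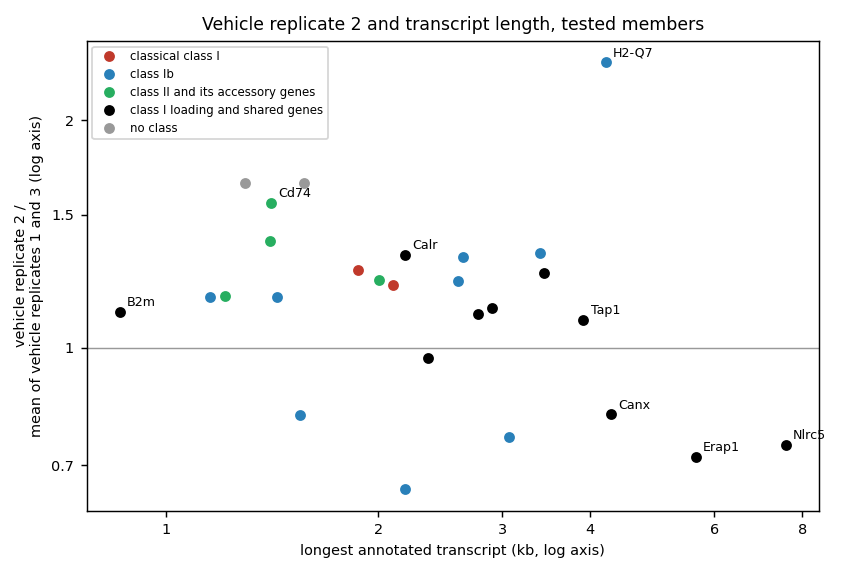
Ratio of vehicle replicate 2 to the mean of vehicle replicates 1 and 3 (log axis) against the longest annotated transcript (kb, log axis) for the 27 tested members with a length, coloured by class. The 3 longest, Nlrc5 among them, lie below 1, while most genes shorter than 2 kb lie above it.

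The genes around the class I pathway were read from lists of 5 steps, none of whose members passed the test in either fit. Among 11 genes that supply peptide (the immunoproteasome, its activator, cytosolic peptidases and the Sec61 channel) 9 had changes below 0 and 5 had non-overlapping lower values (9.78% of all genes did), with a median of -0.26, or -0.14 without vehicle replicate 2. In Npepps, the puromycin-sensitive aminopeptidase, every C13 library lay above, with a change of 0.17 (limma adjusted p = 0.808). Lap3, the leucine aminopeptidase, stood at 56.4, 48.4 and 45.3 FPKM with C13 and 62.8, 72.5 and 67.4 FPKM with vehicle, with a change of -0.43 (limma adjusted p = 0.393). Sec61a1, the pore of the endoplasmic reticulum translocon, had a change of -0.20 (limma adjusted p = 0.673).

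Of 9 inducers of MHC genes 8 were tested, and 6 of these had changes below 0 with a median of -0.096, or -0.21 without vehicle replicate 2. Irf8, an interferon regulatory factor that defines macrophage identity, stood at 29.0, 23.7 and 25.0 FPKM with C13 and 32.7, 38.6 and 36.1 FPKM with vehicle. Its groups lay apart and the change was -0.45 (limma adjusted p = 0.380). Irf1, which binds the class I interferon response element, stood at 112, 115.5 and 107 FPKM with C13 and 125, 145 and 137 FPKM with vehicle, a change of -0.28 (limma adjusted p = 0.527), also without overlap. Ifngr1, a chain of the interferon-gamma receptor, had every C13 library above, with a change of 0.12 (limma adjusted p = 0.821). Ifng, the main inducer of both classes, was at the floor in all but vehicle replicate 3 (0.0828 FPKM), and the 4 T and natural killer cell markers were at the floor throughout.

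The 7 enhanceosome genes, which encode RFX, NF-Y and CREB proteins, were all tested and had no non-overlapping groups, with a median of 0.13, or 0.034 without vehicle replicate 2. The change was 0.22 for Nfyb (limma adjusted p = 0.805) and 0.18 for Rfxank (adjusted p = 0.821), and without that library 0.13 and 0.31. The 6 genes of class II antigen processing had a median of -0.10, or 0.0055 without vehicle replicate 2. The change was -0.18 for Ifi30, the lysosomal thiol reductase (limma adjusted p = 0.823), and -0.16 for Lgmn, an asparaginyl endopeptidase (adjusted p = 0.818), and without that library 0.0043 and -0.074. The 7 MHC-like genes outside the H2 complex had a median of 0.0066, with -0.31 for Raet1d (limma adjusted p = 0.697) and 0.32 for Ulbp1 (adjusted p = 0.816), both ligands of the NKG2D receptor. Without vehicle replicate 2 these were -0.27 and 0.080.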

How the data were processed

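Poly-A RNA of mouse primary microglia was sequenced in 6 libraries. The kit keeps strand, per the labels' protocols. The submitters' processing notes name TopHat2 2.1.0, Cufflinks and the mm10 build. The annotation is not given in the sources used here, nor is the strand setting. The authors deposited their expression values in FPKM, 1 for each gene in each library. FPKM divides by transcript length and library total, so a change is read relative to the other genes of a library. The lowest deposited FPKM value, 0.01, was taken as the floor of undetected genes. The table held no read totals. Depth was estimated from the first step above the floor in genes with a single transcript of at least 1500 nt, taken as 1 fragment, and fragments per gene from the longest GENCODE transcript.

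Values were transformed from the deposited FPKM to log2(FPKM + 1). The 11412 genes that averaged 1 FPKM or more, 31 members among them, entered limma 3.58.1 (R 4.3.3), a two-sided moderated test with the intensity trend and without the robust option. Benjamini-Hochberg adjustment ran over all of them, and 0.05 was the threshold. Changes are C13 minus vehicle and understate those of low genes. The titles call the samples biological replicates but name no cultures or litters, so the p-values reflect only how these samples vary, which may be technical. The fit was tested on simulated data. No count test was run, since whole reads were not recovered.

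The members, classes and lists were chosen with earlier results of these data known. Values in every library are given for tested members with non-overlapping groups and the 3 with the highest mean of each class. They are also given for Nlrc5, Ciita, B2m, Tap1, Tap2, Tapbp and Cd74, and for members past the threshold without vehicle replicate 2. Of each pathway list the 2 genes with the smallest p are named, with values in every library for Lap3, Irf8 and Irf1 among them. Values of other members, H2-Q7 and H2-T9 among them, were added after they were seen. Alternatives were pseudocounts of 0.1 and 5 FPKM, no filter and a minimum of 5 FPKM, TPM and quantile scaling, no trend, array weights, a replicate block, and each library left out. Summing rows that share a locus was added after seeing the data. Promoters of 38 members were matched by symbol to RefSeq windows on GRCm38.p6. A planned comparison of protein sequences was not run.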

Additional observations from a re-analysis of the deposited data

How the results depend on the processing

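Over 15 other settings the 20 named members gave 281 values with the same direction and side of the threshold, 1 that passed it (H2-Q4 without vehicle replicate 2) and 17 of the opposite sign, none past the threshold. Calls over all genes moved from 0 higher and 0 lower to 18 and 24 with array weights and to 0 to 47 and 0 to 122 when single libraries were left out, the highest without vehicle replicate 2. Summing the rows of 1 locus, chosen after seeing the data, left 0 and 0. Genes called higher numbered 7 after quantile normalization, 2 after TPM and 1 without the intensity trend. Members called lower numbered 0 to 1 when single libraries were left out, and members with C13 libraries all above 0 to 1. Members with C13 libraries all below numbered 6 after TPM, where 384 of the 11412 genes lay below. The class II median was -0.30 with a minimum of 5 FPKM, 0.12 after TPM, 0.038 with array weights and -0.11 to 0.10 when single libraries were left out. The classical class I median was -0.077 after quantile normalization and -0.086 after TPM. The class Ib median was -0.0075 after TPM and -0.29 to -0.088 when single libraries were left out. The loading median was -0.017 after quantile normalization and -0.076 after TPM. TPM raised the median of all genes by 0.13, and relative to that shift the medians were -0.21 for classical class I, -0.13 for class Ib, -0.0077 for class II and -0.20 for the loading genes. Signs turned after quantile normalization for B2m (0.0070), Calr (0.012), Pdia3 (0.057), H2-T22 (0.091) and H2-DMa (-0.020), after TPM for H2-DMb1 (0.048), H2-T22 (0.11) and Pdia3 (0.042), and with array weights for H2-DMb1 (0.0072). When single libraries were left out, the changes ran from -0.045 to 0.14 for H2-DMa, -0.20 to 0.066 for H2-DMb1, -0.16 to 0.32 for H2-L and -0.16 to 0.11 for H2-T22. The causes were not tested.

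With the replicate number as a block, 0 genes were called higher and 0 lower. Deviations of same-numbered libraries correlated at 0.0886, 0.129 and 0.0978, so the numbers were not treated as pairing, although every library correlated best with its own number. These numbers are those of the sample titles. The column headers carry a different numbering, which the block did not use. Depth limits the rows under 1 FPKM, where 1 or a few fragments set the value.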
